A study of Mus musculus with 34 samples.

Results

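The EGFR family was followed here through 10 genes in 3 mouse colorectal cancer cell lines. They are the receptors Egfr, Erbb2 and Erbb3, the ligands Areg, Ereg, Hbegf, Tgfa, Btc and Epgn, and the feedback inhibitor Errfi1. The genes were chosen by name, and the table's Ensembl identifiers were matched to GENCODE M21 symbols. All 10 were among the 14107 genes of the table. RNA was sequenced from 34 libraries in 12 groups of line, treatment and day. NaJa-D, NaJa-F and NaJa-G were grown from the peritoneal fluid of C57BL/6N mice that had received colon organoids, and each line came from a single recipient. The labels give every library the genotype VillinCreERT2, BrafV600E/+, Trp53R172H and APCdel, so the DMSO controls carry these alleles too. Cre was driven by the Villin promoter, which is active in intestinal epithelium, and recombination was induced with 4-HT in the organoids. The study describes NaJa-D as epithelial-like, NaJa-F as intermediate and NaJa-G as mesenchymal-like. Cells in medium with serum received 0.5 µM encorafenib, which inhibits mutant BRAF, or the solvent DMSO for 1 day or 5 days. For the 5-day time point, drug and solvent were renewed with the medium. Of the 12 groups, 10 had 3 libraries, while 2 remained for NaJa-F with encorafenib and for NaJa-G in DMSO, both at day 5.

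On GRCm38, the build of the files, the receptor genes are Egfr (ENSMUSG00000020122, chr11:16752203-16918158, plus strand), Erbb2 (ENSMUSG00000062312, chr11:98412470-98437716, plus strand) and Erbb3 (ENSMUSG00000018166, chr10:128567523-128589652, minus strand). The ligand genes on chromosome 5 are Epgn (ENSMUSG00000035020, chr5:91027464-91035215, plus strand), Ereg (ENSMUSG00000029377, chr5:91074622-91093646, plus strand), Areg (ENSMUSG00000029378, chr5:91139599-91148432, plus strand) and Btc (ENSMUSG00000082361, chr5:91357261-91402994, minus strand), and those elsewhere are Tgfa (ENSMUSG00000029999, chr6:86195223-86275719, plus strand) and Hbegf (ENSMUSG00000024486, chr18:36504927-36515805, minus strand). The inhibitor gene is Errfi1 (ENSMUSG00000028967, chr4:150853919-150868892, plus strand). Each value is for a gene as a whole, as the table counts it.

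EGFR, ERBB2 and ERBB3 are receptor tyrosine kinases that pair with one another when a ligand binds and pass the signal to RAS, RAF, MEK and ERK and to PI3K. ERBB2 has no known ligand of its own, and ERBB3 has little kinase activity and works through its partners. The ligands are made as membrane proteins and are released by proteases of the ADAM family. Several ligand genes and Errfi1 are known targets of ERK, and the ERRFI1 protein binds and inhibits the EGFR kinase, so the pathway feeds back on itself. In BRAF-mutant colorectal cancer, signalling through EGFR is known to limit the effect of BRAF inhibitors.

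Total counts ranged from 46007050 to 80121299 per library. Counts of Epgn, the scarcest member, ranged from 15 to 167. Levels are given as CPM, counts scaled to library size and TMM factor, for one gene between groups, and as RPKM, which also divides by exon length, wherever genes are compared with each other. That length covers all annotated exons of the gene, such as 1215 bases for Areg and 4834 for Hbegf. Which transcripts were expressed was not examined, so orders and shares between genes rest on these lengths. Differences are log2 fold changes ± SE from limma-voom, called where the p adjusted over all genes by Benjamini-Hochberg was under 0.01. The labels do not say whether replicates were separate cultures, so the p-values measure only the spread between these libraries. For 1 library, which its title places as NaJa-D DMSO day 1 replicate 3, the cell line field says NaJa-G. Its log2 CPM correlated at 0.995 or more with the other libraries of its title and at most 0.92 with NaJa-G in DMSO at day 1, and it was kept under its title. Without it, Areg, Btc and Errfi1 in NaJa-D changed with encorafenib at day 1 by -0.48, -0.83 and -0.74, against -0.52, -0.80 and -0.72 with it. All 7 epithelial markers (Epcam, Cdh1, Krt8, Krt18, Krt19, Vil1 and Cdx2) were in the table. Their summed levels were 5131 to 9077 CPM in NaJa-D, 4399 to 7377 in NaJa-F and 2569.7 to 5213 in NaJa-G. The medians of Epcam, Cdh1, Krt8 and Vil1 fell in that order of lines. Those of Cdx2 and Krt18 were highest in NaJa-F, and that of Krt19 was lowest there. Cdx2 was at 12.4 to 24.6 CPM in NaJa-D, 41.8 to 65.3 in NaJa-F and 1.14 to 9.88 in NaJa-G. Of 4 fibroblast markers Thy1 was not among the symbols of the table. The other 3 summed to 13.8 to 107 CPM in NaJa-G, against at most 4.46 in the other lines. The mesenchymal genes Vim, Zeb1 and Cdh2 summed to 2183 to 3132 CPM in NaJa-G. Of 4 leukocyte markers Ptprc and Adgre1 were not among those symbols and the others summed to at most 10.2 CPM. Of 3 endothelial markers Pecam1 and Cdh5 were not among them and Kdr was at 1.36 CPM or less. Of 3 mesothelial markers Wt1 was not among the table's symbols and the others, mostly Msln, summed to 496 to 3517 CPM. The library NaJa-D encorafenib day 1 replicate 3 stands apart. Leaving it out raises the number of genes whose response differs between NaJa-F and NaJa-D at day 1 from 1240 to 3937. Of the members' values followed without it, the 2 whose call changed, Erbb3 and Tgfa in NaJa-D at day 1, are given with both. Response differences of members that were not called with all libraries were not followed singly. For NaJa-G minus NaJa-D at day 1, 6 to 9 members were called with 1 library left out in turn, against 7 with all. In bulk RNA, fewer cells of a type and less RNA per cell cannot be told apart. The study reports that host cells disappeared over the passages, judged by PCR from the vanishing wild-type Apc band. For their absence it also cites the lost wild-type Trp53 band and a raised Trp53R172H allele frequency in exome sequencing. The marker sums were not used to test whether host cells remained. Whether reads were counted by strand is not given in the sources used here, so reads of Egfr, Erbb2 and Ereg cannot be told apart from those of Egfros, Mien1 and Gm19610, which overlap them on the other strand.

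The lines differed in all 3 receptors. Per unit length, Erbb2 was the most abundant receptor transcript in DMSO at day 1 in every line, with 44.2 ± 4.42 RPKM for NaJa-D, 19.9 ± 1.44 for NaJa-F and 15.3 ± 1.18 for NaJa-G (mean ± SD, n = 3). Erbb3 followed in NaJa-D at 33.4 ± 2.51 RPKM and in NaJa-F at 13.4 ± 0.702 RPKM, whereas in NaJa-G it was the lowest of the receptors at 2.25 ± 0.0733 RPKM. Egfr stood at 12 ± 0.705, 10.8 ± 0.363 and 3.33 ± 0.0806 RPKM for NaJa-D, NaJa-F and NaJa-G. Per unit length, Egfr and Erbb3 thus changed places between NaJa-F and NaJa-G. In CPM Egfr was above Erbb3 in both (122 and 80.4 for NaJa-F, 37.8 and 13.6 for NaJa-G). For Egfr, the difference between NaJa-F and NaJa-D did not pass the test (0.0065 on the log2 scale, 95% interval -0.081 to 0.094, over both days in DMSO, and 0.13 and called with library sizes in place of TMM scaling), and Egfr was 3.1 times lower in NaJa-G than in NaJa-F. Erbb2 was 2.05 times lower in NaJa-F than NaJa-D, and 1.24 times lower again in NaJa-G. The call of this second step was lost at day 5 alone (-0.25, limma adjusted p = 0.0117). Erbb3 was lower at each step, 2.32 times from NaJa-D to NaJa-F and 6.15 times from NaJa-F to NaJa-G.

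In CPM, the Erbb3 libraries in DMSO at day 1 read 184, 212 and 206 for NaJa-D, 84.2, 81.1 and 75.8 for NaJa-F and 13.1, 14 and 13.6 for NaJa-G. At day 5 they read 239.8, 231 and 199 for NaJa-D, 99.5, 106 and 103 for NaJa-F and 14.8 and 17.3 for NaJa-G. No library of any line overlapped those of another on either day. For Egfr, day 1 gave 129.6, 133 and 145 CPM for NaJa-D, 121, 126 and 118 for NaJa-F and 38.6, 37.9 and 36.8 for NaJa-G. The NaJa-G libraries were all below those of the other lines, and NaJa-D lay above NaJa-F at day 1 but below it at day 5 (108, 112 and 91.8 against 116, 115 and 118 CPM).

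Among the ligands, Epgn differed most between the lines. Epgn, which encodes epigen, was scarce throughout and highest for NaJa-D, at 1.86, 2.16 and 2.77 CPM in DMSO at day 1 against 0.703, 0.698 and 0.714 for NaJa-F and 0.419, 0.563 and 0.349 for NaJa-G. It was 2.26 times lower in NaJa-F and 4.6 times lower in NaJa-G, each against NaJa-D. Areg, the low-affinity ligand amphiregulin, was the most abundant ligand per unit length in DMSO at day 1, at 28.7 ± 3.16 RPKM for NaJa-D, 36.4 ± 2.7 for NaJa-F and 41.4 ± 1.55 for NaJa-G. Hbegf, the heparin-binding ligand, was next with 23.6 to 26.4 RPKM, followed by Tgfa (14.9 to 18.2), Ereg, which encodes epiregulin (9.37 to 12.9), and Btc, which encodes betacellulin (5.95 to 7.21). Without the division by length, Hbegf was above Areg in each line. In CPM their means were 114 and 34.9 for NaJa-D, 128 and 44.3 for NaJa-F and 118 and 50.3 for NaJa-G. Over both days, Areg, Ereg, Hbegf, Tgfa and Errfi1 were higher in NaJa-F than NaJa-D by a called amount, 0.21 (Errfi1) to 0.44 (Ereg) on the log2 scale. In NaJa-G, Ereg was called higher than in NaJa-D (0.24 ± 0.048) and Tgfa lower than in NaJa-F (-0.45 ± 0.043). Taken by day, the Ereg difference was called at day 1 (0.47) and read 0.015 (limma adjusted p = 0.868) at day 5.

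In counts over both days, 5 members were called higher and 3 lower in NaJa-F than in NaJa-D, where 32.6% and 29% of all genes were. For NaJa-G against NaJa-D, 1 member was higher and 5 were lower, with 33.3% and 34.1% of all genes. For NaJa-G against NaJa-F, 0 were higher and 7 lower, with 25.2% and 29.2% of all genes. Some of the small differences between lines depended on the day. For NaJa-F against NaJa-D, 3 of the 5 higher calls were lost on a single day, Hbegf at day 1 (0.17, against 0.30 at day 5), Tgfa at day 1 (0.14, against 0.43 at day 5) and Areg at day 5 (0.16, against 0.35 at day 1). Areg in NaJa-G against NaJa-D was called at day 1 alone (0.53) and read -0.24 at day 5. Against NaJa-D, Btc was higher in NaJa-G at day 1 (0.24) and lower at day 5 (-0.23), both called, as was Errfi1 (0.24 and -0.20). Against NaJa-F, Btc likewise read 0.28 at day 1 and -0.27 at day 5, both called, while Ereg was not called at day 1 (0.13) and lower at day 5 (-0.54). Errfi1 in NaJa-G against NaJa-F was called lower over both days (-0.19) but read 0.024 at day 1, and its call was lost without NaJa-G DMSO day 5 replicate 1 (-0.12).

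**Figure D1:**
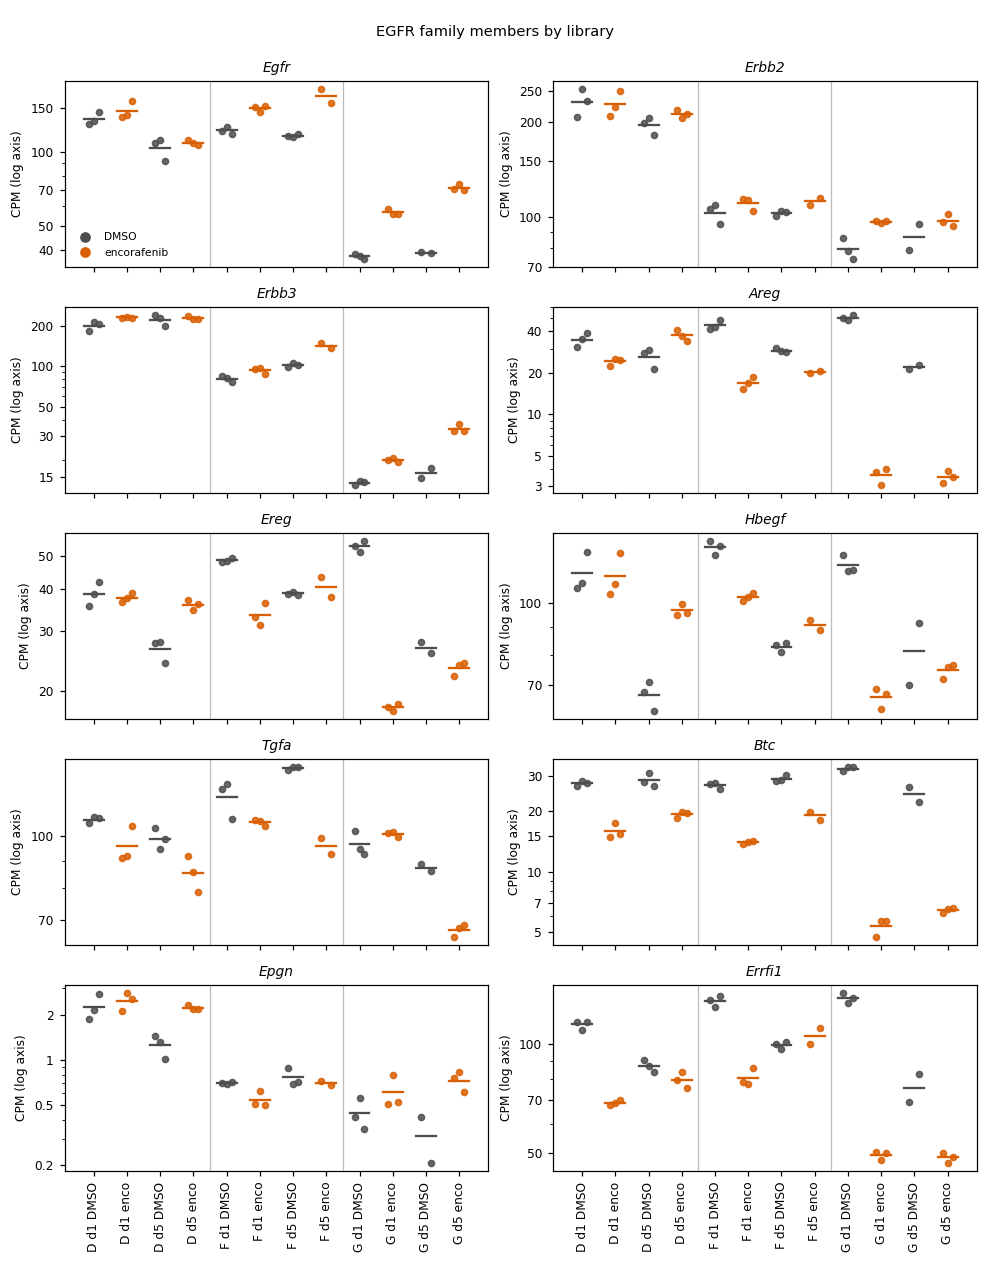
CPM of the 10 members in each library (points) and the mean of each group (bars), on a log axis, by line (D, F, G), day (d1, d5) and treatment (DMSO grey, encorafenib orange). Areg and Btc drop furthest with encorafenib in NaJa-G, where Egfr and Erbb3 move the other way. The mean DMSO levels of Areg, Ereg, Hbegf and Errfi1 are lower at day 5 than at day 1 in every line.

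With encorafenib, Areg, Btc and Errfi1 fell at day 1 in all 3 lines, furthest in NaJa-G, where Areg was 14.1 times and Btc 6.1 times lower than in DMSO. Egfr rose in NaJa-F and NaJa-G at both days, and Erbb3 rose 2.13-fold in NaJa-G at day 5. At day 1, 1 member was called higher and 3 lower in NaJa-D (all genes 23.7% and 21.2%), 1 and 5 in NaJa-F (all genes 17.5% and 12%), and 3 and 5 in NaJa-G (all genes 35.3% and 28.7%). At day 5 the counts were 4 higher and 2 lower in NaJa-D (all genes 18.3% and 14.7%), 2 and 3 in NaJa-F (all genes 9.7% and 8.5%), and 3 and 4 in NaJa-G (all genes 28.5% and 24.7%). The median absolute log2 change of the members was 0.156 in NaJa-D at day 1, against 0.306 over all genes, and 0.324 against 0.225 at day 5. In NaJa-F it was 0.343 against 0.21 and 0.302 against 0.167, and in NaJa-G 0.708 against 0.474 and 0.756 against 0.372. The marker sums moved with treatment too. Every encorafenib library lay above the DMSO libraries of its line and day in the sums of the epithelial, leukocyte, fibroblast and mesothelial markers. The mesenchymal sum lay below instead, without overlap, except in NaJa-G at day 1 (2439 to 3132 CPM in DMSO, 2588 to 2763 in encorafenib). In NaJa-F at day 5 it was 397 to 421 and 229 to 240, and in NaJa-G at day 5 2322 to 2605 and 2183 to 2267. The endothelial marker Kdr was lower in NaJa-G at both days, higher in NaJa-D at day 5 and overlapped elsewhere. In NaJa-G at day 5 the epithelial sum was 2569.7 to 3087 CPM in DMSO and 3100.4 to 3297 in encorafenib, the leukocyte sum 3.73 to 4.47 and 7.22 to 7.94, the fibroblast sum 13.8 to 16.3 and 92.5 to 107, and the mesothelial sum 496 to 564 and 1532 to 1741. At day 1 in NaJa-G these were 3274 to 4089 and 5059 to 5213, 3.9 to 5.44 and 6.35 to 6.73, 51.1 to 70.3 and 83.9 to 98.7, and 557 to 723 and 1328 to 1522 CPM. Their part in the members' changes was not tested.

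**Figure D2:**
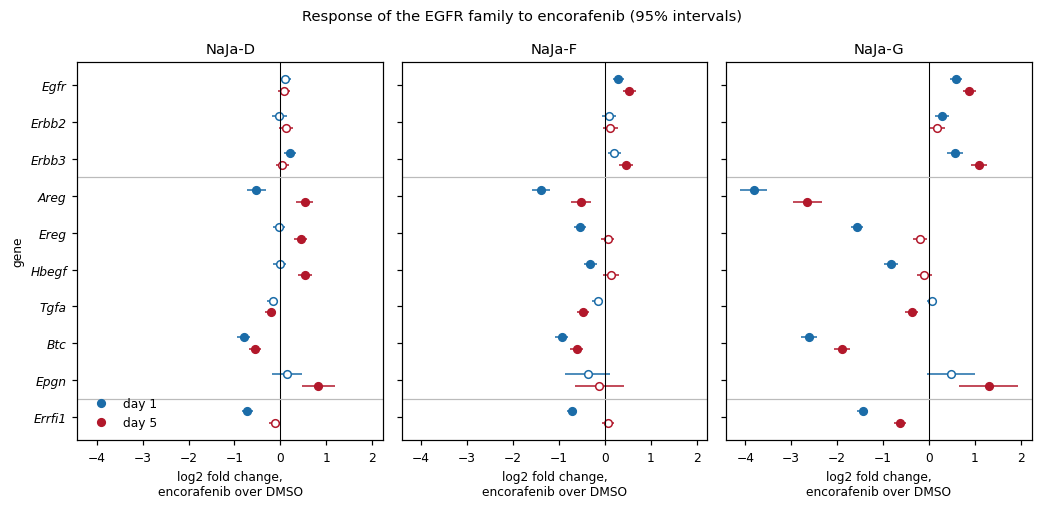
log2 fold change of each member, encorafenib over DMSO, with its 95% interval, in each line at day 1 (blue) and day 5 (red); filled points were called and open points were not. Receptors (top), ligands (middle) and Errfi1 (bottom) are separated by lines. Areg reaches -3.82 in NaJa-G at day 1, and Areg in NaJa-D lies on either side of 0 at day 1 (-0.52) and day 5 (0.52).

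Egfr rose with encorafenib in NaJa-F and NaJa-G, while its changes in NaJa-D were small and not called. In NaJa-G the libraries read 38.6, 37.9 and 36.8 CPM in DMSO and 58.5, 56.1 and 55.9 in encorafenib at day 1, and 39.3 and 38.7 against 70.8, 73.6 and 70.3 at day 5. Every treated library was above every control library of its day. The changes were 0.59 ± 0.063 and 0.88 ± 0.070, or 1.5-fold and 1.83-fold. In NaJa-F, 121, 126 and 118 CPM in DMSO stood against 152, 144 and 153 at day 1, and 116, 115 and 118 against 179 and 158 at day 5. There Egfr rose by 0.30 ± 0.061 and 0.53 ± 0.068, again without overlap between the groups. In NaJa-D the changes were 0.11 (95% interval -0.017 to 0.23) and 0.073 (-0.051 to 0.20), and the groups overlapped at both days. With library sizes in place of TMM scaling, the NaJa-D value at day 1 was 0.18 and called (limma adjusted p = 0.00243), and without encorafenib day 1 replicate 3 it was 0.010. Even after the rise, Egfr in NaJa-G at day 5 (71.6 ± 1.81 CPM) stayed below its DMSO level in NaJa-F (116 ± 1.46) and NaJa-D (104 ± 10.6).

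Erbb3 also rose in NaJa-G, the line where it was scarcest, and in NaJa-F at day 5. In NaJa-G it went from 13.1, 14 and 13.6 to 19.9, 20.7 and 19.3 CPM at day 1 and from 14.8 and 17.3 to 33, 37.1 and 32.6 CPM at day 5. These are rises of 0.56 ± 0.083 and 1.09 ± 0.087, the latter 2.13-fold, and no libraries overlapped. In NaJa-F the day 5 libraries read 99.5, 106 and 103 CPM in DMSO and 148 and 136 in encorafenib, a rise of 0.47 ± 0.073, whereas the day 1 difference of 0.21 ± 0.065 missed the threshold (limma adjusted p = 0.0103), and passed it without encorafenib day 1 replicate 3 (0.26) or DMSO day 1 replicate 1 (0.25). In NaJa-D a difference of 0.21 ± 0.066 at day 1 passed narrowly (limma adjusted p = 0.00956) and that at day 5 did not (0.041, 95% interval -0.10 to 0.18). The NaJa-D call at day 1 was lost with edgeR (adjusted p = 0.0114) and DESeq2 (adjusted p = 0.0156). Limma-trend, RLE scaling, the filter at 2 log2 CPM and a fit of only the groups compared lost it too. So did leaving out 5 of the 6 libraries in turn, where the difference ranged from 0.12 to 0.25. Without encorafenib replicate 3, the library that stands apart, it was 0.18 (limma adjusted p = 0.0349), and without DMSO replicate 1 it was 0.12.

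Erbb2, the partner without a ligand, had a single called change, in NaJa-G at day 1, from 86.4, 78.7 and 74.2 to 97.3, 96.2 and 97.4 CPM, a rise of 0.28 ± 0.074 that was lost without DMSO day 1 replicate 3 (0.23, limma adjusted p = 0.013). In the other 5 comparisons its change lay between -0.021 and 0.17. The last of these, in NaJa-G at day 5, was 0.30 and called without DMSO day 5 replicate 3, with a lone control library left (limma adjusted p = 0.00979).

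Areg had the largest fall of the members. In NaJa-G the DMSO libraries read 50.1, 48.5 and 52.2 CPM at day 1 and the treated ones 3.78, 3.08 and 4.03, a fall of 14.1 times (-3.82 ± 0.14). At day 5 they read 21.3 and 22.6 and 3.17, 3.85 and 3.5 (-2.65 ± 0.15, 6.28 times lower). The treated libraries of both days overlapped, whereas the DMSO libraries were lower at day 5. In NaJa-F Areg fell from 41.9, 43 and 48 to 15.4, 16.8 and 18.7 CPM at day 1 (-1.39 ± 0.10) and from 30.3, 28.6 and 28.1 to 20.01 and 20.5 at day 5 (-0.52 ± 0.11). The latter call was lost without NaJa-F encorafenib day 5 replicate 1, which left a lone treated library (-0.51, limma adjusted p = 0.0105). In NaJa-D the direction turned, with 30.9, 35.1 and 38.6 CPM in DMSO against 22.4, 25.2 and 24.9 at day 1 (-0.52 ± 0.10), but 28, 29.3 and 21.3 against 40.8, 37.2 and 34 at day 5 (0.52 ± 0.094). Both changes were called and neither pair of groups overlapped. The treated NaJa-D level at day 5 (37.4 CPM) was near that of DMSO at day 1 (34.9 CPM).

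Btc was the only member called lower in all 6 comparisons. At day 1 it fell from 26.8, 28.1 and 27.8 to 14.8, 17.4 and 15.4 CPM in NaJa-D, from 27.3, 27.5 and 25.8 to 13.7, 14.1 and 14.3 in NaJa-F and from 31.6, 33.1 and 33.1 to 4.74, 5.64 and 5.66 in NaJa-G. At day 5 the corresponding libraries read 27.9, 30.8 and 26.7 and 18.5, 19.9 and 19.6 in NaJa-D, 28.2, 28.7 and 30.3 and 19.9 and 18.2 in NaJa-F, and 26.3 and 22.3 and 6.24, 6.51 and 6.58 in NaJa-G. No treated library reached a control library of its line and day. The log2 changes were -0.80, -0.94 and -2.61 at day 1 and -0.55, -0.61 and -1.90 at day 5 for NaJa-D, NaJa-F and NaJa-G, with SE of 0.065 to 0.085. Each of these 6 calls held with every other tool, scaling and filter tried, with only the groups compared and without any 1 library, but a minimum absolute log2 change of 1 would leave only the 2 of NaJa-G.

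Ereg and Hbegf, which with Btc also bind the related receptor ERBB4, fell at day 1 in NaJa-F and NaJa-G and were called higher in NaJa-D at day 5. In NaJa-G at day 1 Ereg went from 53.5, 51.2 and 55.2 to 17.9, 17.5 and 18.3 CPM (-1.58 ± 0.065) and Hbegf from 123, 115 and 116 to 68.9, 63.2 and 67.5 CPM (-0.83 ± 0.074). In NaJa-F the falls were -0.54 ± 0.060 and -0.31 ± 0.073. In NaJa-D at day 1 neither was called (-0.039 and -0.019), and at day 5 Ereg read 27.7, 27.8 and 24.1 CPM in DMSO and 37.1, 34.6 and 36 in encorafenib (0.44 ± 0.065), and Hbegf 67.9, 71.2 and 62.7 and 95, 99.7 and 96 (0.53 ± 0.074). At day 5 in NaJa-F and NaJa-G neither was called, with Ereg at 0.062 and -0.19 and Hbegf at 0.13 and -0.10. The NaJa-G DMSO day 5 libraries for Hbegf stood apart from each other (70.2 and 92 CPM), and without replicate 1, the lower of them, the change was -0.30 and called (limma adjusted p = 0.00359).

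Tgfa and Epgn had no called change at day 1 with all libraries in the main fit. Tgfa was not called at day 1 in any line, with changes of -0.16, -0.15 and 0.064 for NaJa-D, NaJa-F and NaJa-G. At day 5 it was called lower in all 3, from 103, 94.5 and 98.6 to 92, 85.9 and 78.8 CPM in NaJa-D (-0.21 ± 0.058), from 132, 134 and 134 to 99.1 and 92.6 in NaJa-F (-0.47 ± 0.065) and from 88.6 and 86 to 65.2, 67.5 and 68.5 in NaJa-G (-0.38 ± 0.065). Without encorafenib day 1 replicate 3, the library that stands apart, the NaJa-D change at day 1 was -0.26 and called (limma adjusted p = 0.00029), and without NaJa-F DMSO day 1 replicate 3 that of NaJa-F was -0.22 and called. The NaJa-D change was also called with the filter at 2 log2 CPM (-0.18), and that of NaJa-F with library sizes in place of TMM scaling (-0.17). The NaJa-D call at day 5 was lost with 4 of the 6 libraries left out in turn (-0.26 to -0.15). Epgn was called higher at day 5 in NaJa-D, from 1.46, 1.32 and 1.02 to 2.31, 2.19 and 2.18 CPM (0.82 ± 0.17), and in NaJa-G, from 0.418 and 0.208 to 0.754, 0.827 and 0.61 CPM (1.30 ± 0.31). The NaJa-G call was lost without DMSO replicate 3, the lower of its 2 controls, where the change was 0.77 (limma adjusted p = 0.074).

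Errfi1, whose product blocks the EGFR kinase, fell at day 1 in all 3 lines. It went from 115, 109 and 115 to 67.8, 68.8 and 69.8 CPM in NaJa-D (-0.72 ± 0.056), from 133, 127 and 136 to 78.5, 77.5 and 85.9 in NaJa-F (-0.71 ± 0.056) and from 138, 130.0 and 134 to 50.4, 47.7 and 49.9 in NaJa-G (-1.44 ± 0.057). The groups were fully apart in each line. At day 5 only NaJa-G was called, from 69.1 and 82.4 to 49.9, 47 and 48.8 CPM (-0.64 ± 0.063), while NaJa-D read -0.13 (95% interval -0.24 to -0.013) and NaJa-F 0.076 (-0.050 to 0.20).

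Areg, Btc and Errfi1 were the members called lower at day 1 in all 3 lines, and the 250 bases before their start sites (RefSeq, GRCm38.p6, 5′ to 3′ on the gene's strand) are shown for that reason. Capitals mark matches, on either strand, to any of 3 motifs searched, TGANTCA (AP-1), TGACGTCA (the cAMP response element) and CCGGAAG (the ETS core), which factors downstream of growth factor signalling are known to bind. None of the matches shown overlap.
Areg (chr5:91139349-91139598, plus strand): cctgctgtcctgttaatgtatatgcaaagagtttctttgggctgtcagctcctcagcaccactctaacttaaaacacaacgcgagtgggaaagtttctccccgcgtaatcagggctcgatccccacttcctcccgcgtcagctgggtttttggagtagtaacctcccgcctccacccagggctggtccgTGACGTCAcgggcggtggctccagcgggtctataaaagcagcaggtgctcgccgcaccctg
Errfi1 (chr4:150854820-150855069, plus strand): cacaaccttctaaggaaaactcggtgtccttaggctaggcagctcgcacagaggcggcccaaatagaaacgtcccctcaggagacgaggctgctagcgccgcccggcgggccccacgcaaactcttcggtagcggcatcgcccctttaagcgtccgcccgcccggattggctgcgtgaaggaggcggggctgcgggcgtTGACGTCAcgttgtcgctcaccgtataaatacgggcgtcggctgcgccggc
Btc (chr5:91402995-91403244, minus strand): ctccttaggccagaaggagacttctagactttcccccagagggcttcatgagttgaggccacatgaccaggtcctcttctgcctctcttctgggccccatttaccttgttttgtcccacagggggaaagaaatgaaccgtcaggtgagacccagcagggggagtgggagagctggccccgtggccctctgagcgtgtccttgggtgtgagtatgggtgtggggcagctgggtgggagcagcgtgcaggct
TGACGTCA starts 61 bases before the start of Areg and 51 bases before the downstream of the 2 listed starts of Errfi1. The upstream Errfi1 start (chr4:150853546-150853795) and the Btc window hold none of the 3 motifs. Sequences were held for 7 of the 10 members, and among the others only Egfr had a match, to the ETS core 120 bases before its start. Over 32851 promoter windows of this length, TGACGTCA was in 1.55%, TGANTCA in 6.75% and CCGGAAG in 6.91%. The motifs were chosen with the results known, and a match describes letters, not binding.

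Several members also moved with time in DMSO. Areg, Ereg, Hbegf and Errfi1 were called lower in all 3 lines. Areg went from 34.9 to 26.2 CPM for NaJa-D (-0.42 ± 0.10), from 44.3 to 29 for NaJa-F (-0.61 ± 0.090) and from 50.3 to 22 for NaJa-G (-1.19 ± 0.10). The NaJa-D call of Areg was lost without DMSO day 5 replicate 3 (-0.28) or day 1 replicate 3 (-0.35). Ereg changed by -0.54, -0.33 and -1.0, Hbegf by -0.76, -0.62 and -0.55, and Errfi1 by -0.38, -0.40 and -0.83 for NaJa-D, NaJa-F and NaJa-G. Hbegf in NaJa-G was at -0.36 without DMSO day 5 replicate 1. Btc was called lower in NaJa-G (-0.43 ± 0.068), with 0.041 and 0.12 in NaJa-D and NaJa-F. Among receptors, Egfr was lower in NaJa-D (-0.39 ± 0.060) and Erbb3 was higher in NaJa-F (0.36 ± 0.065), and no receptor was called in NaJa-G. Members called higher and lower numbered 0 and 6 in NaJa-D (all genes 13.7% and 15.3%), 1 and 4 in NaJa-F (all genes 9.73% and 7.01%), and 0 and 5 in NaJa-G (all genes 17.2% and 16.8%). These comparisons share their DMSO libraries with the encorafenib comparisons.

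The responses were then compared between lines, as differences of log2 fold changes. At day 1 Areg fell further in NaJa-G than in NaJa-D (-3.30 ± 0.17) and NaJa-F (-2.43 ± 0.17), and further in NaJa-F than in NaJa-D (-0.86 ± 0.14). Btc separated NaJa-G from NaJa-D (-1.81 ± 0.11) and from NaJa-F (-1.67 ± 0.11), while NaJa-F and NaJa-D did not differ by a called amount (-0.13, 95% interval -0.33 to 0.062). For Errfi1, NaJa-G differed by -0.72 from NaJa-D and by -0.73 from NaJa-F, and NaJa-F from NaJa-D by 0.010, which was not called (95% interval -0.15 to 0.17). Ereg differed in all 3 pairs, by -1.54 and -1.04 in NaJa-G against NaJa-D and NaJa-F and by -0.50 in NaJa-F against NaJa-D. The receptor responses also differed, with Egfr raised more in NaJa-G than NaJa-D by 0.48 ± 0.087 at day 1 and 0.80 ± 0.093 at day 5, and Erbb3 by 0.36 ± 0.11 and 1.05 ± 0.11. The Erbb3 difference at day 1 was lost with 7 of its 12 libraries left out in turn (0.32 to 0.45) and with library sizes in place of TMM scaling (0.23). At day 5 Egfr was also raised more in NaJa-F than in NaJa-D (0.46 ± 0.091), a call lost without NaJa-F encorafenib day 5 replicate 1 (0.37). With all libraries, Erbb2 was called in none of the 6 differences, where it ranged from 0.010 to 0.31. Its differences with 1 library left out were not followed.

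Of the 10 members, 2 differed between NaJa-F and NaJa-D at day 1 (all genes 8.79%) and 4 at day 5 (8.85%; 2 without NaJa-F encorafenib day 5 replicate 1), 7 between NaJa-G and NaJa-D at day 1 (36.4%) and 7 at day 5 (21.9%), and 7 between NaJa-G and NaJa-F at day 1 (33.5%) and 6 at day 5 (24.2%). Between the days, 4 responses differed in NaJa-D (all genes 7.29%), 4 in NaJa-F (5.88%) and 7 in NaJa-G (31.7%). Areg, Ereg, Hbegf and Errfi1 had higher log2 changes at day 5 than at day 1 in every line, Areg by 1.05, 0.87 and 1.17, Ereg by 0.48, 0.60 and 1.38, Hbegf by 0.55, 0.45 and 0.72, and Errfi1 by 0.59, 0.79 and 0.81. Tgfa went the other way in NaJa-G (-0.44 ± 0.087). The DMSO levels moved over the same days, and their part in these differences was not tested. In encorafenib, Areg read 24.2 and 37.4 CPM at day 1 and day 5 for NaJa-D, 17 and 20.3 for NaJa-F and 3.63 and 3.51 for NaJa-G. Errfi1 read 68.8 and 79.6 CPM for NaJa-D, 80.6 and 105 for NaJa-F, and 49.3 and 48.5 for NaJa-G. The treated NaJa-G libraries of both genes overlapped between the days. The Hbegf difference in NaJa-F was lost with 10 of its 11 libraries left out in turn.

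The ligand and receptor transcripts were also summed by role. The 6 ligands summed to 101 ± 2.35 RPKM in NaJa-G in DMSO at day 1 and 38.1 ± 0.831 in encorafenib, and to 60.3 ± 2.61 and 36.2 ± 1.26 at day 5. In NaJa-F the sums were 99.1 ± 1.39 and 63 ± 2.02 at day 1 and 77.8 ± 0.774 and 64.7 ± 2.23 at day 5, and those of NaJa-D 85.5 ± 6.31 and 71.9 ± 4.61, then 64.1 ± 5.32 and 78.2 ± 3.76. The 3 receptors summed to 20.9 ± 1.21 and 27 ± 0.174 RPKM in NaJa-G at day 1 and 22.8 ± 2.44 and 30.8 ± 1.42 at day 5, to 47.2 ± 0.892 and 60.1 ± 1.88 in NaJa-F at day 5, and to 83.7 ± 6.65 and 88.1 ± 2.62 in NaJa-D at day 5. No test was run on these sums, which depend on the exon lengths used. The shares within each sum also differed. Areg was 41 ± 1.04% of the ligand sum in NaJa-G in DMSO at day 1 and 7.82 ± 0.908% in encorafenib, where Tgfa (40.7 ± 1.22%) and Hbegf (36.1 ± 0.854%) made up most of the rest. In NaJa-D at day 5 Areg was instead 33.5 ± 2.85% in DMSO and 39.3 ± 1.69% in encorafenib. Erbb3 was 11.7 ± 0.0479% of the receptor sum in NaJa-G in DMSO at day 5 and 18.5 ± 0.518% in encorafenib.

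**Figure D3:**
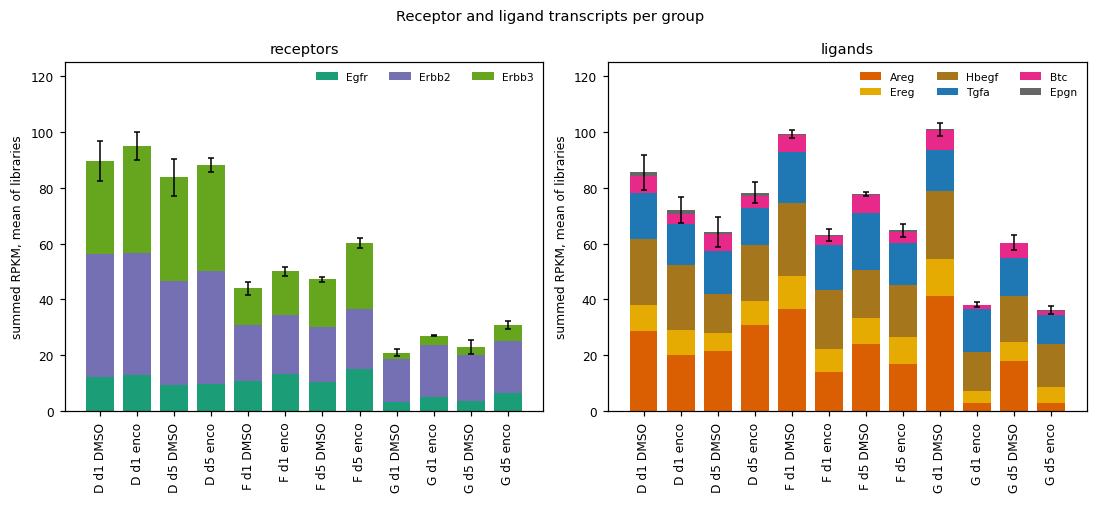
Mean RPKM of the receptors (left) and ligands (right), stacked, in each group, labelled by line (D, F, G), day (d1, d5) and treatment (enco for encorafenib); error bars are the SD of the sum over libraries. In NaJa-G the ligand sum is 101 ± 2.35 in DMSO and 38.1 ± 0.831 in encorafenib at day 1, with most of the RPKM loss in Areg. In CPM, without the division by length, Areg went from 50.3 to 3.63 there and Hbegf from 118 to 66.5.

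Other genes of the pathway were read in 4 lists. Over all genes the median log2 change lay between -0.017 and 0.044 in the 6 encorafenib comparisons. Of the further receptor and ligands, Erbb4, Nrg1 and Nrg3 were not among the symbols of the table. Egf (at most 2.22 CPM in any library) and Nrg4 were not called in any encorafenib comparison. Nrg2, a ligand of ERBB3 and ERBB4, was called lower in NaJa-D at both days (-0.68 and -0.62) and in NaJa-G at day 1 (-1.06). Of the 6 ligand release genes, the numbers called higher and lower were 4 and 1 in NaJa-D day 1 (all genes 23.7% and 21.2%), 2 and 1 in NaJa-D day 5 (all genes 18.3% and 14.7%), 2 and 0 in NaJa-F day 1 (all genes 17.5% and 12%), 1 and 0 in NaJa-F day 5 (all genes 9.7% and 8.5%), 4 and 1 in NaJa-G day 1 (all genes 35.3% and 28.7%) and 3 and 0 in NaJa-G day 5 (all genes 28.5% and 24.7%). The list's median log2 change was 0.30 for NaJa-D, 0.063 for NaJa-F and 0.31 for NaJa-G at day 1, and 0.084, 0.036 and 0.21 at day 5. Timp3, an inhibitor of the ADAM17 protease, led this list, with changes of 0.88 and 1.18 for NaJa-D, 1.17 and -0.0068 for NaJa-F, and 1.98 and 1.80 for NaJa-G, all called but the NaJa-F value at day 5. In NaJa-G it went from 146 to 575 CPM at day 1. Adam10, which encodes another such protease, was called higher at day 1 in all 3 lines, by 0.29, 0.38 and 0.96 for NaJa-D, NaJa-F and NaJa-G, and was not called at day 5 (0.0070, -0.042 and -0.22). In NaJa-G its DMSO mean was 324 CPM at day 1 and 651 at day 5, and its encorafenib means 629 and 559. Adam17 was the gene called lower wherever this list had a lower call, in NaJa-D at both days (-0.44 and -0.24) and in NaJa-G at day 1 (-0.21). Rhbdf2, which encodes a partner of ADAM17 in its transport, was higher at day 5 for NaJa-D (0.46), NaJa-F (0.39) and NaJa-G (0.58).

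Of the 8 adaptor genes, against the same shares of all genes, the numbers called higher and lower were 1 and 0 in NaJa-D day 1, 2 and 0 in NaJa-D day 5, 2 and 0 in NaJa-F day 1, 2 and 2 in NaJa-F day 5, 5 and 1 in NaJa-G day 1 and 3 and 2 in NaJa-G day 5. The list's median log2 change was 0.086 for NaJa-D, 0.066 for NaJa-F and 0.26 for NaJa-G at day 1, and -0.031, 0.0096 and -0.0090 at day 5. Gab1, a docking protein that carries the signal of activated receptors to PI3K and SHP2, was called higher in all 6, by 1.39 and 1.21 for NaJa-D, 0.87 and 0.96 for NaJa-F, and 2.20 and 2.25 for NaJa-G. Its group means in NaJa-G were 5.33 CPM in DMSO and 24.5 in encorafenib at day 1, and 5.96 and 28.5 at day 5. Ptpn11, which encodes SHP2, was called higher at day 5 in NaJa-D (0.24) and NaJa-G (0.72) and at day 1 in NaJa-F (0.26). Of the 11 turnover and brake genes, the numbers at day 1 were 3 and 3 in NaJa-D (all genes 23.7% and 21.2%). They were 3 and 3 in NaJa-F (all genes 17.5% and 12%) and 4 and 3 in NaJa-G (all genes 35.3% and 28.7%). At day 5 they were 1 and 4 in NaJa-D (all genes 18.3% and 14.7%) and 1 and 1 in NaJa-F (all genes 9.7% and 8.5%). In NaJa-G at day 5 they were 3 and 1 (all genes 28.5% and 24.7%). The day 1 counts in NaJa-D and NaJa-G were near the rate of the table as a whole. The list's median log2 change was 0.10 for NaJa-D, -0.087 for NaJa-F and 0.19 for NaJa-G at day 1, and 0.056, -0.11 and 0.017 at day 5. Lrig1, a membrane protein that promotes receptor degradation, was called lower, with -0.66 and -0.53 in NaJa-D, -0.22 in NaJa-F at day 5 and, for NaJa-G at day 1, -0.98. Ptprj, a receptor phosphatase, was higher by 0.54 and 0.52 in NaJa-F and by 0.62 in NaJa-G at day 1.

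**Figure D4:**
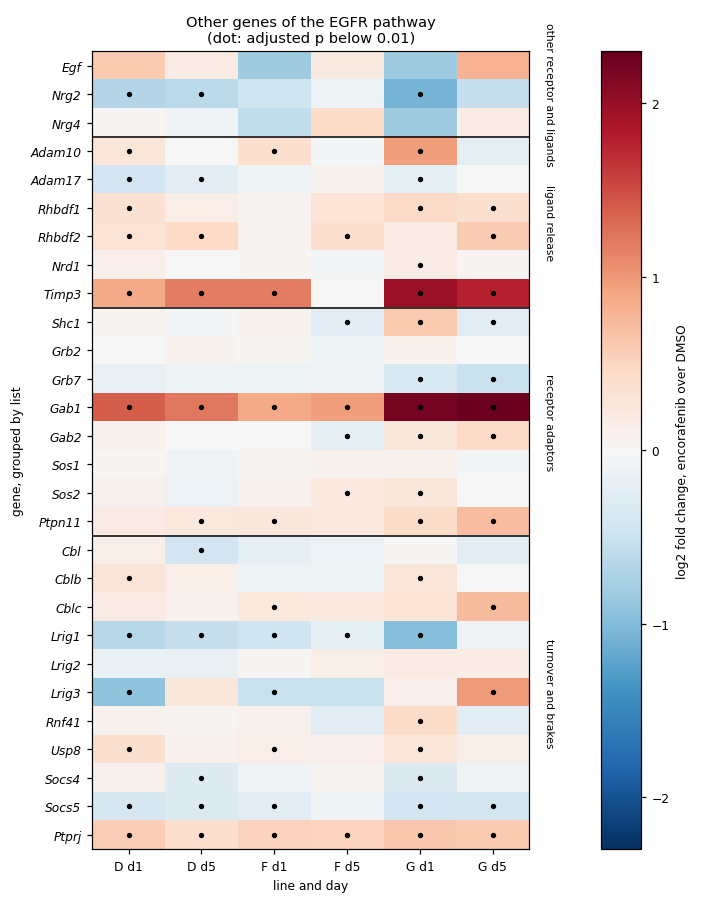
log2 fold change, encorafenib over DMSO, of the other pathway genes (rows, by list) in each line and day (columns); red is higher, blue is lower and a dot marks a call. Gab1 is red with a dot in every column (0.87 to 2.25), and Timp3 in all but NaJa-F at day 5.

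Across the 12 groups, the highest group mean was 17.1 times the lowest for Erbb3, 14.3 times for Areg, 7.95 for Epgn, 6.09 for Btc and 4.46 for Egfr. It was 1.92 to 2.98 times for the other 5. NaJa-G held both the highest and the lowest group of Areg, Ereg, Btc and Errfi1. For Areg, the order ran from NaJa-G DMSO day 1 (50.3 CPM) and NaJa-F DMSO day 1 (44.3) down to NaJa-F encorafenib day 1 (17) and the NaJa-G encorafenib groups (3.63 and 3.51), which overlapped each other. In the middle, neighbours from NaJa-F DMSO day 5 (29) to NaJa-G DMSO day 5 (22) also overlapped. For Egfr, NaJa-F encorafenib day 5 had the highest mean (168 CPM) and did not overlap the next group, NaJa-F encorafenib day 1. Its replicate 2 (158 CPM) was below NaJa-D encorafenib day 1 replicate 3 (160 CPM). The 4 NaJa-G groups were lowest (37.8 to 71.6), with no overlap from neighbour to neighbour. For Erbb3 all 4 NaJa-D groups came first (201 to 231 CPM) and overlapped from neighbour to neighbour, and every lower step, through NaJa-F to NaJa-G, was free of overlap.

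Likeness between members was described by correlation. Over the 12 group means of log2 CPM, Pearson's r was 0.942 between Areg and Btc, 0.877 between Areg and Errfi1, 0.844 between Areg and Ereg, and 0.484 between Areg and Tgfa. Areg, Ereg, Btc and Epgn lie near each other on chromosome 5, but Epgn had an r of 0.229 with Areg and 0.0872 with Btc. Epgn was closest to Erbb2 (0.949), and Egfr to Erbb3 (0.887). The genes most like Egfr over the same groups, among 10275 genes, were Ankib1 (0.985), Pag1 (0.984) and Abcg2 (0.983). Those most like Areg were Plk3 (0.969), Qtrt1 (0.96) and Gnl2 (0.953), and those most like Errfi1 were Mcrip2 (0.967), Cables2 (0.959) and Mrps22 (0.957). These are descriptions over groups that share lines, days and treatments.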

How the data were processed

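RNA from 34 libraries in 12 groups of line, treatment and day was sequenced. The deposited values are whole-number counts of reads per gene, made by the authors from reads trimmed with Trimmomatic 0.39 and aligned with STAR 2.5.2b per the submitters' processing notes, on GRCm38. The counter, annotation release and use of strand are not given in the sources used here. The table held 14107 genes, the lowest with 360 counts over all libraries, and 14064 had a GENCODE M21 symbol. Total counts per library, 46007050 to 80121299, set the precision of the counts.

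The members and the pathway and marker lists were chosen with earlier results of these data known. CPM used TMM factors (0.876 to 1.07), and RPKM divided CPM by the summed length of the gene's exons in GENCODE M21. All 21 contrasts were fitted with limma-voom on all groups together (limma 3.58.1, edgeR 4.0.16, R 4.3.3), two-sided, and called where the p adjusted over all genes by Benjamini-Hochberg was under 0.01, the threshold of the study's methods, which do not name voom. The scripts were tested on simulated data. All members are named. Of each pathway list, the 2 called genes with the largest absolute log2 change in a comparison could be named for it, and Erbb4, Egf and the neuregulins always. Nrd1 stands in the ligand release list for the gene now called Nrdc. Likeness used log2 CPM group means of genes averaging at least 2 log2 CPM. Alternatives were edgeR, DESeq2 1.42.0, limma-trend, other scalings and filters, the replicate number as a block, the groups compared alone, each day alone for the lines, another threshold and each library left out. Replicates of a group differed by more than sampling noise (chi-square per gene 3.31 to 85.9).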

Additional observations from a re-analysis of the deposited data

Results flagged for a closer look

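In 48 cases the log2 response of a member to encorafenib differed between 2 lines or between the 2 days by a test of the difference itself (limma, adjusted p below 0.01 over all genes). In each comparison these were 2 to 7 of the 10 members, where 5.88% to 36.4% of all genes were called. For NaJa-F minus NaJa-D the differences were -0.86 for Areg and -0.50 for Ereg at day 1, and 0.46 for Egfr, 0.43 for Erbb3, -1.04 for Areg and -0.38 for Ereg at day 5. For NaJa-G minus NaJa-D they were 0.48 for Egfr, 0.36 for Erbb3, -3.30 for Areg, -1.54 for Ereg, -0.81 for Hbegf, -1.81 for Btc and -0.72 for Errfi1 at day 1, and 0.80 for Egfr, 1.05 for Erbb3, -3.18 for Areg, -0.63 for Ereg, -0.63 for Hbegf, -1.35 for Btc and -0.51 for Errfi1 at day 5. For NaJa-G minus NaJa-F they were 0.29 for Egfr, 0.35 for Erbb3, -2.43 for Areg, -1.04 for Ereg, -0.52 for Hbegf, -1.67 for Btc and -0.73 for Errfi1 at day 1, and 0.34 for Egfr, 0.62 for Erbb3, -2.14 for Areg, -1.29 for Btc, 1.41 for Epgn and -0.71 for Errfi1 at day 5.

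For day 5 minus day 1, the responses differed by 1.05 for Areg, 0.48 for Ereg, 0.55 for Hbegf and 0.59 for Errfi1 in NaJa-D, 0.87 for Areg, 0.60 for Ereg, 0.45 for Hbegf and 0.79 for Errfi1 in NaJa-F, and 0.53 for Erbb3, 1.17 for Areg, 1.38 for Ereg, 0.72 for Hbegf, -0.44 for Tgfa, 0.71 for Btc and 0.81 for Errfi1 in NaJa-G. The comparisons share DMSO and encorafenib libraries, so they are not independent of each other. The receptors Egfr and Erbb3 were positive and Areg negative in each of these differences between lines. The Epgn difference between NaJa-G and NaJa-F at day 5 was 0.89 and not called without NaJa-G DMSO day 5 replicate 3. With 1 library left out in turn, the Egfr and Erbb3 differences between NaJa-G and NaJa-F at day 1 were lost in 10 and 9 of 12 fits (0.27 to 0.31 and 0.31 to 0.39), that of Egfr at day 5 in 8 of 10, and that of Ereg between NaJa-F and NaJa-D at day 5 in 6 of 11. The Erbb3 difference between the days in NaJa-G was 0.42 and not called without NaJa-G DMSO day 5 replicate 1.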

How the results depend on the processing

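Of 121 called values of the members, 17 lost their call in at least one fit without 1 library and 22 under at least one other alternative, and no called value changed sign except where a single day was used. By setting, the calls lost were 1 each with edgeR, DESeq2, limma-trend and the filter at 2 log2 CPM, 3 with RLE scaling, 4 with library size only, 0 with filterByExpr, 13 with only the groups compared, the last with fewer libraries behind the spread, and 4 each with day 1 or day 5 only for the lines. Calls gained were counted without the response differences that the main fit did not call. They were 2 with DESeq2, 9 with library size only, 2 with the filter at 2 log2 CPM, 1 with only the groups compared, and 4 and 2 with day 1 and day 5 only. With library size only they were Egfr (0.13) for NaJa-F against NaJa-D, Areg (0.27), Hbegf (0.28) and Errfi1 (0.14) for NaJa-G against NaJa-D, Egfr (0.18) for encorafenib in NaJa-D day 1, Tgfa (-0.17) for encorafenib in NaJa-F day 1, Ereg (-0.24) for encorafenib in NaJa-G day 5, Erbb3 (0.33) for time in NaJa-D and Tgfa (0.26) for time in NaJa-F. The calls lost with only the groups compared were Tgfa (-0.16) for NaJa-G against NaJa-D, Errfi1 (-0.16) for NaJa-G against NaJa-F, Erbb3 (0.18) for encorafenib in NaJa-D day 1, Tgfa (-0.22) for encorafenib in NaJa-D day 5, Erbb2 (0.23) for encorafenib in NaJa-G day 1, Epgn (1.28) for encorafenib in NaJa-G day 5, Hbegf (-0.53) and Btc (-0.41) for time in NaJa-G, Ereg (-0.35) for the response difference NaJa-F minus NaJa-D at day 5, Erbb3 (0.29) for the response difference NaJa-G minus NaJa-D at day 1, Egfr (0.32) and Epgn (1.39) for the response difference NaJa-G minus NaJa-F at day 5 and Ereg (0.50) for the response difference day 5 minus day 1 in NaJa-D. Between lines in DMSO, day 5 only gave -0.23 for Btc and -0.20 for Errfi1 in NaJa-G minus NaJa-D and -0.27 for Btc in NaJa-G minus NaJa-F, and day 1 only gave 0.13 for Ereg and 0.024 for Errfi1 in NaJa-G minus NaJa-F, all opposite in sign to the value over both days. Outside the uncalled response differences, a further 54 values, called in neither fit and between -0.237 and 0.182, changed sign.

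Requiring an absolute log2 change of at least 1 left 3 members called between NaJa-F and NaJa-D and 3 between NaJa-G and NaJa-F. With encorafenib it left 0 for NaJa-D at either day, 1 for NaJa-F at day 1 and 0 at day 5, and 4 for NaJa-G at each day, and with time 0 for NaJa-D, 0 for NaJa-F and 1 for NaJa-G. Of response differences it left 0 and 1 for NaJa-F minus NaJa-D at day 1 and day 5, 3 and 3 for each of the other pairs, and 1, 0 and 2 between days for NaJa-D, NaJa-F and NaJa-G. An adjusted p below 0.05 gave 7 members for NaJa-F minus NaJa-D at day 5, and leaving out 1 library gave 2 to 4. With only the groups compared, 3 members changed with time in NaJa-G.

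Library size in place of TMM scaling shifted the all-gene median by 0.12 for NaJa-F minus NaJa-D, 0.12 for NaJa-G minus NaJa-D, 0.18 for time in NaJa-D and -0.13 for the response difference NaJa-G minus NaJa-D at day 1. The share of called genes that were higher then went from 52.9% to 66.5% for NaJa-F against NaJa-D in DMSO, 49.4% to 59.9% for NaJa-G against NaJa-D in DMSO, 52.8% to 63.6% for encorafenib against DMSO, NaJa-D day 1, 47.4% to 81.7% for day 5 against day 1 in NaJa-D, 58.1% to 78.6% for day 5 against day 1 in NaJa-F, 50.6% to 62.4% for day 5 against day 1 in NaJa-G, 51% to 34.7% for encorafenib response, NaJa-F minus NaJa-D, day 1, 55.5% to 40.2% for encorafenib response, NaJa-G minus NaJa-D, day 1 and 64.3% to 51.4% for encorafenib response, NaJa-G minus NaJa-D, day 5. Over all genes, DESeq2 called 2143 in place of 1240 for the response difference NaJa-F minus NaJa-D at day 1. With only the groups compared, counts fell from 1240 to 415 there, from 6335 to 3540 for encorafenib in NaJa-D at day 1, from 4804 to 1182 for time in NaJa-G and from 1029 to 261 for day 5 minus day 1 in NaJa-D. An absolute log2 change of at least 1 left a fraction of 0.0834 to 0.345 of the calls over the 21 contrasts. Same-numbered libraries did not deviate together (r -0.272 to 0.215), and the replicate block cost no call and added Erbb3 in NaJa-F at day 1 (0.21, limma adjusted p = 0.00905). Where a group kept 1 library, it was assumed to vary like the other groups. The scarcest member, Epgn, had the widest errors.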
